A study of Mus musculus with 32 samples.

Results

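The levels of 10 genes used to tell dendritic cell subsets apart, Flt3, Zbtb46, Batf3, Xcr1, Clec9a, Cd209a, Clec10a, Siglech, Cd207 and Fscn1, were followed in 32 murine mesothelioma tumors. The genes were chosen by name, and all 10 had a row among the 39676 genes of the count table. The tumors came from AB1 or AE17, both mesothelioma lines of the mouse, and 500000 AB1 cells were inoculated into female BALB/c mice and 1000000 AE17 cells into female C57BL/6 mice of 8 to 10 weeks of age, either into the pleural space (IPL) or under the skin of the flank (SC). The 4 groups of model and site (AB1 IPL and SC, AE17 IPL and SC) held 8 mice each, all untreated, and polyA RNA of the whole tumor was sequenced on day 10. Each model is a single cell line in a single strain, so cell line, strain and cell dose cannot be told apart, and the tumors hold host cells of every kind that entered them or was left on them at dissection. In bulk RNA, fewer cells of a type and less RNA per cell cannot be told apart.

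Dendritic cells take up antigen, carry it to lymph nodes and present it to T cells. Conventional type 1 cells depend on the transcription factor Batf3, carry the chemokine receptor Xcr1 and the dead-cell receptor Clec9a, and are known for presenting tumor antigen to CD8 T cells, while conventional type 2 cells are a more mixed population that mainly primes CD4 T cells. Plasmacytoid cells are specialised in type I interferon, and cells that have matured change shape and migrate.

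Total counts per tumor lay between 15432258 and 20649645, and 3 counts, taken as the smallest detectable number, corresponded to 0.140 to 0.189 CPM (counts scaled to 1000000 per library). Pan-leukocyte genes were detected in every tumor, with 8 of them summing to between 1085.68 and 2468.0 CPM. Among mesothelial and mesothelioma genes, 6 summed to between 76.2 and 283 CPM, while Msln was not analysed here. Column names gave the sequencing lane, with all 8 AB1 IPL tumors and 2 AB1 SC tumors on lane 3, 6 AB1 SC and 5 AE17 IPL tumors on lane 2, and 3 AE17 IPL and all 8 AE17 SC tumors on lane 1. AE17 SC replicate 8 stood apart, with the lowest pan-leukocyte sum of its group (1400.95 CPM) and its lowest Xcr1, Clec9a, Flt3, Batf3, Siglech and Clec10a. AB1 IPL replicate 8 likewise had the lowest pan-leukocyte sum of all 32 tumors (1085.68 CPM) and the lowest Xcr1, Clec9a, Cd209a, Flt3, Batf3 and Siglech of its group. Values without either tumor are given where a call or a sign changes or a printed difference moves by over 1.5 times.

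Per kb of exon the order of the 10 genes was led by Fscn1 in every group, with mean levels of 25.1 ± 6.17 CPM per kb in AB1 IPL, 21.2 ± 2.52 in AB1 SC, 82.8 ± 3.40 in AE17 IPL and 90.6 ± 14.4 in AE17 SC (SD, n = 8). Clec10a came next in every group, from 3.23 ± 1.21 CPM per kb in AB1 IPL to 14.95 ± 5.64 in AE17 SC (SD, n = 8). Cd207 was last in every group, between 0.0733 ± 0.0839 CPM per kb in AE17 IPL and 0.651 ± 0.223 in AB1 SC (SD, n = 8). The remaining 7 genes had group means between 0.873 CPM per kb (Siglech in AE17 IPL) and 11.4 CPM per kb (Cd209a in AE17 SC).

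In AB1, the question was whether tumors in the pleural cavity differed from tumors under the skin. The C-type lectins Clec10a and Cd209a, the plasmacytoid gene Siglech and the transcription factor Batf3 were lower in IPL tumors, so that 4 of the 10 genes were lower and 0 were higher at an adjusted p under 0.05 (edgeR quasi-likelihood F test, Benjamini-Hochberg over 14645 genes). The background was 10.7% of all tested genes lower and 12.3% higher. At an unadjusted p under 0.05, 6 of the 10 were lower and 0 higher, where 16.3% of all tested genes were lower, and DESeq2 called 4 lower and 0 higher, where it called 8.74% of 21550 genes lower. The median log2 fold change of the 10 genes was -0.55, against -0.00 for all genes tested. With the lane as a covariate 2 of the 10 were called, where 2.64% of all tested genes were, and within lane 3, with 8 IPL against 2 SC tumors, 1 was called, where 1.06% of 15993 genes were. The pan-leukocyte level was lower in IPL tumors at the same time, as given further on.

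In AE17, the same comparison called 2 of 9 tested genes lower, Cd209a and Clec10a, and 0 higher, where 5.73% of 14668 genes were called, 3.13% lower and 2.6% higher (edgeR, same threshold). At an unadjusted p under 0.05, 4 of the 9 were lower and 0 higher, where 12% of all tested genes were lower. DESeq2, which also tested Cd207, called 3 of 10 lower and 0 higher, where it called 4.99% of 17967 genes lower. The median log2 fold change was -0.37 for the 9 genes and 0.00 for all genes tested. With the lane as a covariate, and within lane 1 with 3 IPL against 8 SC tumors, 0 were called (edgeR), with 3 lower at an unadjusted p under 0.05 in each fit, where 8.19% and 7.75% of genes were lower. These fits called 1 of 14668 genes (0.00682%) and 14 of 15375 genes (0.0911%), so the counts of 0 say nothing particular to these genes. Of 16 fits that each left out a mouse, 10 called 1 gene, 3 called 2, 2 called 3 (without AE17 SC replicate 4 or 8) and 1 called 4 (without AE17 IPL replicate 5), and Clec10a was the gene lost in the 10. Those last 3 fits called 5.9%, 3.83% and 8.56% of all genes, in that order.

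**Figure D1:**
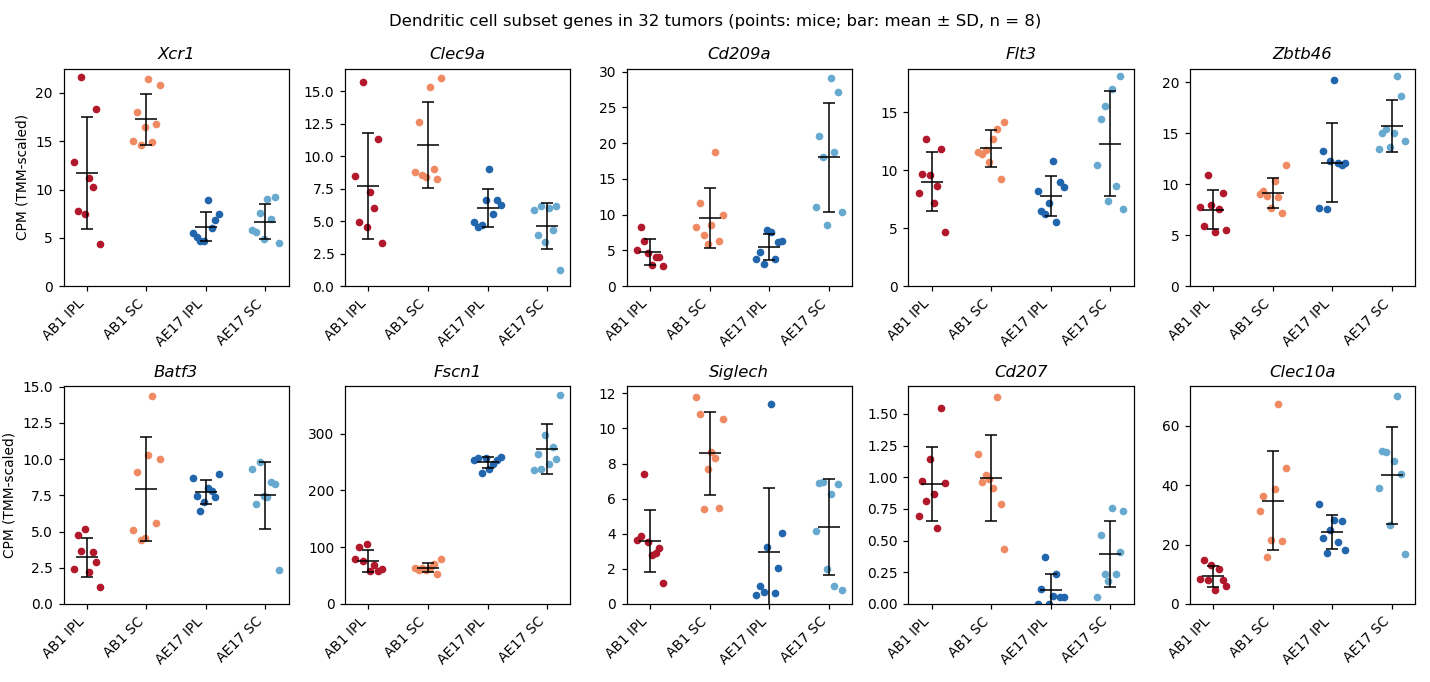
Level of each gene in CPM (linear axis from 0) in the 4 groups, with 1 point per mouse in order of replicate number and a bar with whiskers for the mean ± SD (n = 8, whiskers cut at 0). Clec10a in AB1 and Cd209a in AE17 show IPL points that all lie below the SC points, and Fscn1 in AE17 lies above 229 CPM in every tumor against at most 106 CPM in AB1.

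Flt3 encodes the receptor for the growth factor that drives dendritic cell development, and lies on the minus strand at chr5:147330741-147400489 (GENCODE M21, GRCm38, as for all genes here). In AB1 its level was 4.65 CPM at the lowest, 9.09 at the median and 12.7 at the highest in IPL tumors, and 9.26, 11.6 and 14.2 in SC tumors. The groups overlapped, although 4 IPL tumors lay below every SC tumor, and the log2 fold change of -0.42 (SE 0.16) did not pass the test (adjusted p = 0.0724). Leaving out AB1 IPL replicate 3 or 7 in turn brought it under the threshold, with -0.52 and an adjusted p of 0.0277 without replicate 3. In AE17 IPL tumors Flt3 ranged from 5.51 through a median of 7.68 to 10.8 CPM, and in SC tumors from 6.64 through 12.4 to 18.1 CPM. All 8 IPL values lay below the SC median, with overlap at the low end of the SC group, and the log2 fold change was -0.66 (SE 0.21, adjusted p = 0.0770 by edgeR, 0.0340 by DESeq2 and 0.0348 by edgeR with all 32 mice in 1 fit). It passed without AE17 IPL replicate 5, AE17 SC replicate 4 or AE17 SC replicate 8 (-0.75, adjusted p = 0.0449 without the last). Between AB1 and AE17, Flt3 differed by -0.07 (SE 0.20) on the log2 scale in SC and by 0.20 (SE 0.19) in IPL tumors, neither of them past the test (adjusted p = 0.769 and 0.364), and the SC value was -0.17 without AE17 SC replicate 8 (adjusted p = 0.418).

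Zbtb46, a transcription factor that marks conventional dendritic cells and their committed precursors (minus strand, chr2:181387762-181459426), passed the test between models and not between sites. Its levels ran from 5.27 through a median of 7.66 to 10.9 CPM in AB1 IPL and from 7.21 through 8.97 to 11.9 CPM in AB1 SC tumors. In AE17 they ran from 7.53 through 12.1 to 20.2 CPM in IPL and from 13.4 through 15.01 to 20.6 CPM in SC tumors, and 7 of the 8 IPL tumors lay below all SC tumors. The exception was AE17 IPL replicate 5. The site difference was -0.31 in AB1 (SE 0.15, adjusted p = 0.158) and -0.37 in AE17 (SE 0.17, adjusted p = 0.180), and it passed without AB1 IPL replicate 3 (-0.41, adjusted p = 0.0453) and without AE17 IPL replicate 5 (-0.52, adjusted p = 0.0318). AB1 tumors had less Zbtb46 than AE17 tumors at both sites, by -0.81 in SC (SE 0.11, adjusted p = 7.59e-06, no overlap) and by -0.71 in IPL tumors (SE 0.20, adjusted p = 0.00580). No lane was shared by AB1 and AE17 tumors of the same site, so lane cannot be told apart from model within a site. With lane in 1 fit of all 32 mice, the SC difference kept an adjusted p of 0.0416, and the IPL difference had 0.0973 (and -0.36, adjusted p = 0.569, with the pan-leukocyte level as a covariate).

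Batf3, the transcription factor that conventional type 1 cells need (plus strand, chr1:191097847-191108945), had the lowest p of the 10 genes for a site difference that differed between models. In AB1 IPL tumors its lowest, median and highest levels were 1.16, 3.23 and 5.16 CPM, and in AB1 SC tumors 4.42, 7.33 and 14.4 CPM. The groups met at their edges, with 6 IPL tumors below every SC tumor and all 8 below the SC median. The AB1 difference was -1.33 (SE 0.30, adjusted p = 0.00413), with -1.21 within lane 3 (adjusted p = 0.248), -1.16 with lane as a covariate (adjusted p = 0.197) and -0.06 with the pan-leukocyte level as a covariate (adjusted p = 0.954). In AE17 the levels were 6.43, 7.62 and 8.96 CPM in IPL and 2.38, 7.83 and 9.82 CPM in SC tumors, with the IPL values inside the SC range, and the difference was 0.05 (SE 0.20, adjusted p = 0.902), or -0.09 without AE17 SC replicate 8 (adjusted p = 0.630). The interaction of model and site was -1.36 (SE 0.37, adjusted p = 0.00930), in a fit where 20.5% of 15681 genes were called and 8.62% were called in this direction. It passed with each mouse left out in turn, between -1.49 and -1.19, and had an adjusted p of 0.230 with lane as a covariate and 0.610 with the pan-leukocyte level as a covariate. Between IPL tumors Batf3 was lower in AB1, without overlap (-1.27, SE 0.23, adjusted p = 0.000107), a call lost with lane (-1.03, adjusted p = 0.134) and with the pan-leukocyte level (-0.44, adjusted p = 0.397) as a covariate.

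Xcr1 and Clec9a were the pair that moved most closely together, and the stretches around their transcription starts are shown for that reason. Xcr1 has 2 exon blocks on the minus strand at chr9:123852315-123862029, and Clec9a has 7 on the plus strand at chr6:129408862-129424763, where the neighboring Clec1b overlaps it on the same strand. The promoters (250 bases before the start and 50 after it, from RefSeq on GRCm38.p6) are those at chr9:123861980-123862279 on the minus strand and at chr6:129408612-129408911 on the plus strand.
Xcr1: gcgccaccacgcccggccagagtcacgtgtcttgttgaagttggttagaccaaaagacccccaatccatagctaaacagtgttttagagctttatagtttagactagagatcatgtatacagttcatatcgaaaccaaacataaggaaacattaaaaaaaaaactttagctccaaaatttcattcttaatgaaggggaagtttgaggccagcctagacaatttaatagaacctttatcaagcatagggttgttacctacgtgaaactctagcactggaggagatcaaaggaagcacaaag
Clec9a: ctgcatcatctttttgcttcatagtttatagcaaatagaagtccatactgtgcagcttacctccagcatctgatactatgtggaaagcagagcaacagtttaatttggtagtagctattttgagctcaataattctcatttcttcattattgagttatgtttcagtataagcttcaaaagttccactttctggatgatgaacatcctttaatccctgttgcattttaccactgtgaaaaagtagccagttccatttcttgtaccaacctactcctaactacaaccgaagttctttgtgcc
Neither stretch holds the AP-1 motif TGANTCA, which the Batf3 family binds, the composite ETS-IRF motif (GGAA and GAAA with 2 bases between them) or the IRF motif (GAAA and GAAA with 2 bases between them) on either strand, so no base is in capitals. These letters are found in 7.81%, 2.72% and 3.44% of 32851 mouse promoters of the same length. Of the 9 genes here with a promoter in the table, AP-1 letters were present for Zbtb46 and Cd207, and IRF letters for none.

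Xcr1 levels in AB1 IPL tumors ran from 4.38 through a median of 10.7 to 21.7 CPM, and in AB1 SC tumors from 14.6 through 16.7 to 21.4 CPM. The IPL group was wide, with 6 of its 8 tumors below every SC tumor and replicate 3 above all of them. The coefficient of variation was 49.3% in AB1 IPL and 15.4% in AB1 SC tumors. The site difference of -0.58 (SE 0.25) did not pass (adjusted p = 0.105), and it was -0.77 without AB1 IPL replicate 3 (adjusted p = 0.0217). Clec9a followed the same order, with 3.33, 6.63 and 15.7 CPM in AB1 IPL and 8.23, 8.87 and 15.99 CPM in AB1 SC tumors. Its difference was -0.52 (SE 0.28, adjusted p = 0.199), and -0.76 without replicate 3 (adjusted p = 0.0371). Without this mouse 8 of the 10 genes were lower in AB1 IPL tumors, the 4 added being Xcr1, Clec9a, Flt3 and Zbtb46, while 10.4% of 14692 genes were lower in that fit.

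In AE17 neither receptor gene passed the test between sites. Xcr1 ran from 4.62 through 5.78 to 8.95 CPM in IPL and from 4.45 through 6.37 to 9.25 CPM in SC tumors, with a difference of -0.11 (SE 0.18, adjusted p = 0.736), or -0.19 without AE17 SC replicate 8 (adjusted p = 0.560). Clec9a ran from 4.54 through 5.90 to 9.01 CPM in IPL and from 1.22 through 5.05 to 6.18 CPM in SC tumors, the lowest being replicate 8, with a difference of 0.39 (SE 0.25, adjusted p = 0.346), or 0.24 without that mouse (adjusted p = 0.438). Both were higher in AB1 than in AE17 under the skin, without overlap, by 1.34 for Xcr1 (SE 0.15, adjusted p = 5.97e-07) and by 1.20 for Clec9a (SE 0.26, adjusted p = 0.000667). In that comparison 63.7% of 14718 genes were called, and 31.2% had groups that did not overlap, 15.3% with AB1 higher and 16% with AB1 lower. With lane as a covariate the Xcr1 difference was 1.62 (adjusted p = 0.00300) and that of Clec9a 1.28 (adjusted p = 0.0550). In IPL tumors Xcr1 was higher in AB1 by 0.92 (SE 0.27, adjusted p = 0.00753), with overlap, and Clec9a differed by 0.34 (SE 0.27, adjusted p = 0.300). The Xcr1 call in IPL tumors was lost with lane (1.11, adjusted p = 0.0719) and with the pan-leukocyte level (1.40, adjusted p = 0.0806) as a covariate. Ordered by mean level, Xcr1 ran AB1 SC, AB1 IPL, AE17 SC, AE17 IPL. Neither site step within a model passed the test, and the step from AB1 IPL to AE17 SC, which differ in both model and site, was not tested.

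**Figure D2:**
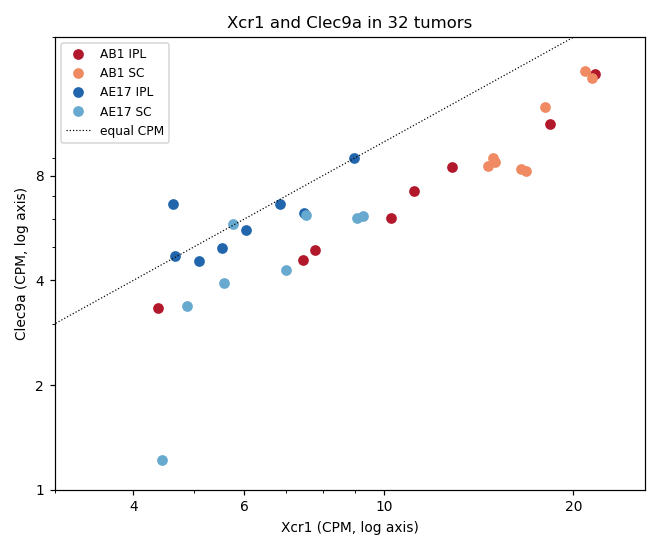
Level of Clec9a against that of Xcr1 in each of the 32 tumors (CPM, log axes), colored by group, with a dotted line where both genes have the same CPM. The points rise together in every group, AE17 IPL points lie nearest the line, and the lowest point is AE17 SC replicate 8 with 1.22 CPM of Clec9a.

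The count of Xcr1 over that of Clec9a had a median of 1.56 in AB1 IPL (range 1.32 to 1.70), 1.68 in AB1 SC (1.30 to 2.04), 1.06 in AE17 IPL (0.696 to 1.20) and 1.47 in AE17 SC tumors (0.990 to 3.65). AE17 IPL ratios all lay below the AB1 ratios of either site. Part of the Clec9a exons is shared with Clec1b, with 4.02% of 50-base windows found in both genes, and how such reads were counted is not given in the sources used here. After removal of the group means, log2 CPM of Xcr1 and Clec9a had a Pearson r of 0.85 over 32 mice, and within groups r lay between 0.75 and 0.99. The mice share library preparation and lanes in part, and this is a description without a test. Beside each other, the genes most like Xcr1 among 15680 were A530099J19Rik (r = 0.90) and Tlr11 (0.85), and those most like Clec9a were Tlr11 (0.88) and Gpr33 (0.86).

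Cd209a, a lectin of the DC-SIGN family found on monocyte-derived and conventional type 2 dendritic cells (minus strand, chr8:3743397-3748984), was the only one of the 10 genes whose AE17 groups stood apart by site. It reached 3.12 CPM at the lowest, 5.44 at the median and 7.88 at the highest in IPL tumors, and 8.49, 18.4 and 29.1 CPM in SC tumors. All 8 SC tumors lay above all 8 IPL tumors, which 0.307% of tested genes did in this direction and 0.573% in either direction. The mean was 5.42 ± 1.81 CPM in IPL and 18.02 ± 7.66 CPM in SC tumors (SD, n = 8), 3.33-fold higher in SC. On the log2 scale the difference was -1.72 (SE 0.27, adjusted p = 0.00598), and it passed with each mouse left out. The value was -1.72 as well within lane 1 (adjusted p = 0.159) and with lane as a covariate (adjusted p = 0.144), and -1.75 with the pan-leukocyte level as a covariate (adjusted p = 0.00135).

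In AB1, Cd209a ran from 2.80 through 4.32 to 8.24 CPM in IPL and from 5.93 through 8.38 to 18.7 CPM in SC tumors. The groups overlapped, with 6 IPL tumors below every SC tumor, and the difference was -1.04 (SE 0.26, adjusted p = 0.00759). It was -1.13 within lane 3 (adjusted p = 0.202), -1.08 with lane as a covariate (adjusted p = 0.168) and -0.28 with the pan-leukocyte level as a covariate (SE 0.43, adjusted p = 0.726). The 2 site differences were not shown to differ (interaction 0.70, SE 0.38, adjusted p = 0.203), though with the pan-leukocyte level as a covariate the interaction was 1.44 (adjusted p = 0.0443). AB1 SC tumors held less Cd209a than AE17 SC tumors (-0.94, SE 0.28, adjusted p = 0.00818, and 0.175 with lane as a covariate), and in IPL tumors the difference between models was -0.21 (SE 0.25, adjusted p = 0.481), or -0.13 without AB1 IPL replicate 8 (adjusted p = 0.671). The genes most like Cd209a within groups were Cd209d (r = 0.86), a member of the same lectin family, Adam23 (0.84) and Nfasc (0.80), over 32 mice.

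The promoter of Cd209a is shown because this gene, with Clec10a, was called lower in the IPL tumors of both models without a covariate and because it alone among the 9 promoters holds ETS-IRF letters. It lies at chr8:3748935-3749234 on the minus strand (RefSeq, GRCm38.p6), and the capitals mark the motif, read on the opposite strand, from position -9 to 0 where 0 is the transcription start.
Cd209a: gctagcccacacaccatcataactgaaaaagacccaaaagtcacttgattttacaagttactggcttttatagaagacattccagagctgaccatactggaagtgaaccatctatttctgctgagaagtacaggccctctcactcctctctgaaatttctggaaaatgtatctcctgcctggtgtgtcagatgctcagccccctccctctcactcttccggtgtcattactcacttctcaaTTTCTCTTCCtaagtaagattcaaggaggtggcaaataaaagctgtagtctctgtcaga
Such a match describes the letters and is no evidence of binding.

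Clec10a, a galactose-binding lectin of type 2 dendritic cells and macrophages (plus strand, chr11:70156197-70170834), had the largest site difference of the 10 genes in AB1. In IPL tumors it ran from 4.78 through a median of 8.26 to 14.8 CPM, and in SC tumors from 15.7 through 33.8 to 67.4 CPM. All 8 IPL tumors lay below all 8 SC tumors, which 2.48% of tested genes did in AB1. Mean levels were 9.35 ± 3.52 and 34.8 ± 16.6 CPM (SD, n = 8), 3.72-fold higher in SC, with a log2 fold change of -1.93 (SE 0.29, adjusted p = 0.000197). It was the 1 gene of the 10 still called within lane 3 (-1.93, adjusted p = 0.0200) and, with Siglech, with lane as a covariate (-1.87, adjusted p = 0.0257), and with the pan-leukocyte level as a covariate the value was -0.90 and the call was lost (adjusted p = 0.291). In AE17, IPL tumors ran from 17.3 through 23.5 to 33.7 CPM and SC tumors from 16.7 through 45.9 to 70.0 CPM, the lowest again being SC replicate 8. The groups overlapped, although 6 SC tumors lay above every IPL tumor. The difference was -0.84 (SE 0.23, adjusted p = 0.0419), close to the threshold, since it passed in 6 of 16 fits that left out a mouse and had an adjusted p of 0.0103 without SC replicate 8. The call was lost without a filter (adjusted p = 0.0812), with a replicate block (adjusted p = 0.0734), with lane as a covariate (adjusted p = 0.210) and within lane 1 (adjusted p = 0.287).

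The site difference of Clec10a was larger in AB1 than in AE17, with an interaction of -1.08 (SE 0.38, adjusted p = 0.0400), which passed in 16 of 32 fits that left out a mouse and had an adjusted p of 0.0661 without AE17 SC replicate 8 and 0.0589 without AB1 IPL replicate 8. The call was lost without a filter (-1.05, adjusted p = 0.0918), with lane as a covariate (-0.91, adjusted p = 0.429) and with the pan-leukocyte level as a covariate (-0.27, SE 0.43, adjusted p = 0.737). IPL tumors of AB1 held less than those of AE17, without overlap (-1.38, SE 0.22, adjusted p = 2.74e-05, and 0.0415 with lane as a covariate), while the SC groups did not pass (-0.34, SE 0.30, adjusted p = 0.332). With the pan-leukocyte level as a covariate the IPL difference was -0.78 (SE 0.38, adjusted p = 0.133), and 6 of the 8 pan-leukocyte genes were themselves lower in AB1 than in AE17 IPL tumors. Clec10a shares sequence with its neighbor Mgl2, with 270 of 3181 windows of 50 bases found in both, so reads could be split between them. Mgl2 was also the gene most like it (r = 0.87 over 32 mice), and its mean level was 21.1 ± 10.1 CPM in AB1 IPL and 117 ± 70.2 CPM in AB1 SC tumors (SD, n = 8). Chn2 (r = 0.82) and Olfm1 (0.81) followed. Clec10a and Batf3 had an r of 0.81 as well, which came to 0.82, 0.93, 0.32 and 0.79 within IPL and SC tumors of AB1 and IPL and SC tumors of AE17, in that order.

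Siglech, a sialic acid-binding receptor used to mark plasmacytoid dendritic cells (plus strand, chr7:55768178-55778925), was lower in AB1 IPL tumors. There it ran from 1.21 through 3.36 to 7.42 CPM, against 5.44 through 8.49 to 11.8 CPM in SC tumors. With the exception of IPL replicate 3, all IPL tumors lay below all SC tumors. The log2 fold change was -1.29 (SE 0.27, adjusted p = 0.00226), and -1.67 with lane as a covariate (adjusted p = 0.0269). The call was lost within lane 3 (-1.72, adjusted p = 0.101), with all 32 mice in 1 fit (-1.27, adjusted p = 0.0532) and with the pan-leukocyte level as a covariate (-0.58, adjusted p = 0.510). In AE17 IPL tumors it ran from 0.523 through 1.53 to 11.4 CPM, and in SC tumors from 0.792 through 5.22 to 6.94 CPM. The single IPL tumor above every SC tumor was replicate 5, which also had the highest summed level of 9 B and T cell genes in its group (277 CPM, group median 87.8). The AE17 difference was -0.56 (SE 0.63, adjusted p = 0.622), and -1.31 without that mouse (adjusted p = 0.141). Its interaction with model was -0.71 (SE 0.70, adjusted p = 0.517), changing sign to 0.04 without the same mouse. Siglech was higher in AB1 than in AE17 SC tumors by 0.95 (SE 0.38, adjusted p = 0.0393), a call lost in 7 of 16 fits that left out a mouse, with lane as a covariate (0.24, adjusted p = 0.872), without a filter (adjusted p = 0.0743), with a replicate block (adjusted p = 0.0503) and with all 32 mice in 1 fit (adjusted p = 0.0945). Ccr9, a chemokine receptor of plasmacytoid cells, was most like it (r = 0.92 over 32 mice, and 0.85 to 0.97 within groups), followed by Tbc1d8 (0.90) and Cd4 (0.87), the latter known from T cells and plasmacytoid cells alike.

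Cd207 encodes langerin, the lectin of Langerhans cells and of some type 1 cells of skin and lung (minus strand, chr6:83671215-83677857), and it was barely detected. Counts per tumor were 10 to 33 in AB1 IPL, 7 to 28 in AB1 SC, 0 to 6 in AE17 IPL and 1 to 12 in AE17 SC. At most 3 counts were found in 6 of 8 AE17 IPL and in 2 of 8 AE17 SC tumors, so AE17 levels were at or near the limit of detection, and the filter on low counts removed the gene from the edgeR comparison of AE17 sites. Its fitted difference there was -1.76 without a filter (adjusted p = 0.124), -1.82 by DESeq2 (adjusted p = 0.0629) and -1.76 in the fit of all 32 mice (adjusted p = 0.0242), which it entered only through the AB1 tumors, so no direction is drawn. In AB1 the groups overlapped widely, with medians of 0.910 and 0.976 CPM and a difference of -0.09 (SE 0.23, adjusted p = 0.810). Levels in AB1 were above those in AE17 at both sites, with mean levels of 0.948 ± 0.293 against 0.112 ± 0.128 CPM in IPL tumors, where no values overlapped, and 0.991 ± 0.339 against 0.394 ± 0.261 CPM in SC tumors (SD, n = 8). The gene passed the filter of these comparisons only through AB1, the model where it was high, so its adjusted p of 1.28e-05 in IPL and 0.00330 in SC tumors (0.00722 and 0.326 with lane as a covariate) describes a gene that had to differ, and is no support for a difference. Sizes fitted for Cd207 that involve AE17 rest on counts of 0 to 12 per tumor there and are imprecise, by edgeR and DESeq2 alike. Other Langerhans cell genes passed the filter for 3 of 6 listed. Among keratinocyte genes, 7 summed to at most 8.40 CPM in AB1 tumors and 43.8 CPM in AE17 tumors.

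Fscn1 encodes fascin, an actin-bundling protein that mature dendritic cells make and that many tumor cells make too (plus strand, chr5:142960343-142973185). It ran from 57.4 through a median of 72.2 to 106 CPM in AB1 IPL and from 53.5 through 62.6 to 78.3 CPM in AB1 SC tumors. In AE17 it ran from 230 through 254 to 258 CPM in IPL and from 236 through 260 to 367 CPM in SC tumors, the highest being SC replicate 8, the tumor with the lowest leukocyte level of its group. Every AE17 tumor lay above every AB1 tumor, with log2 differences of -2.12 in SC (SE 0.09, adjusted p = 2.74e-12) and -1.73 in IPL tumors (SE 0.12, adjusted p = 1.66e-09), which remained called with lane as a covariate (adjusted p = 5.68e-09 and 6.35e-07). In IPL tumors 59.1% of 14886 genes were called between models, 30.5% with AB1 higher and 28.6% with AB1 lower, and 28.4% had groups that did not overlap, 14.1% with AB1 higher and 14.3% with AB1 lower. Neither site difference passed, at 0.21 in AB1 (SE 0.13, adjusted p = 0.247) and -0.12 in AE17 (SE 0.08, adjusted p = 0.327, or -0.06 without SC replicate 8). Which cells gave these reads cannot be told apart in whole tumors. The r of Fscn1 with Clec9a differed between groups, from -0.97 in AE17 SC tumors, where replicate 8 had the highest Fscn1 and the lowest Clec9a, through -0.25 in AB1 IPL and -0.03 in AE17 IPL to 0.48 in AB1 SC tumors (8 mice each). Over 32 mice its most like genes were Gna12 (r = 0.80), Acbd6 (0.80) and Ctbp1 (0.79). Within groups these ran from 0.03 to 0.94, from -0.20 to 0.95 and from 0.03 to 0.89, in that order.

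**Figure D3:**
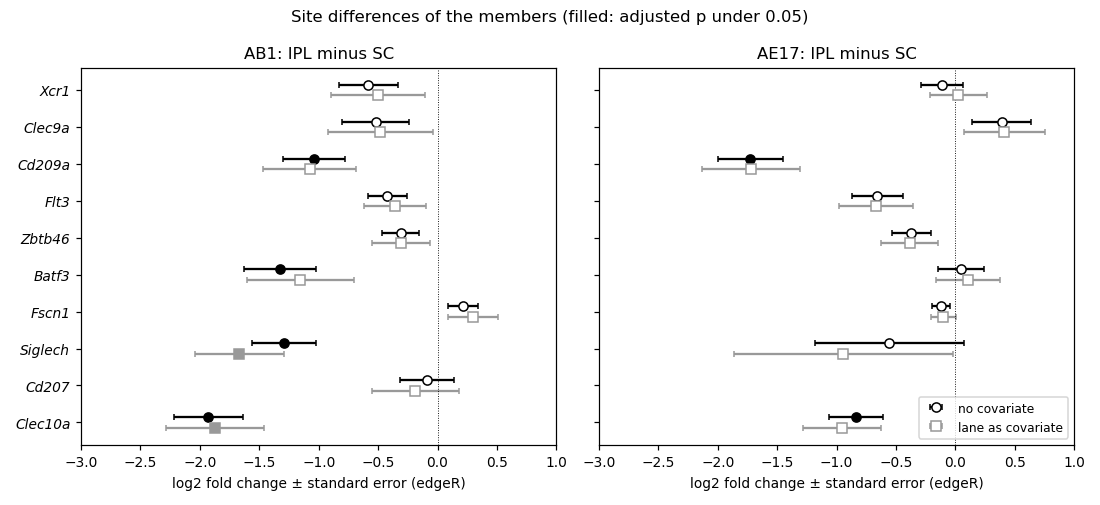
Log2 fold change of IPL minus SC tumors ± SE for each gene in AB1 (left) and AE17 (right), without a covariate (black circles) and with lane as a covariate (gray squares), filled where the adjusted p was under 0.05. In AB1 9 of the 10 black points lie below 0 and 4 are filled, in AE17 2 are filled, Cd207 has no AE17 point, and with lane as a covariate the standard errors are wider and only Siglech and Clec10a in AB1 are filled.

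Leukocyte genes moved with the site in AB1. Of 8 pan-leukocyte genes, 6 were lower in AB1 IPL tumors (median log2 fold change -0.56), among them Ptprc, the CD45 gene (-1.18, SE 0.24, adjusted p = 0.00183), Itgb2 (-0.88, SE 0.14, adjusted p = 0.000346) and Cd53 (-0.85, SE 0.16, adjusted p = 0.00120). Their mean log2 CPM was 7.19 ± 0.23 in AB1 IPL, 7.82 ± 0.20 in AB1 SC, 7.79 ± 0.16 in AE17 IPL and 7.77 ± 0.31 in AE17 SC tumors (SD, n = 8). In AE17 1 of the 8 was lower, Arhgdib (-0.43, SE 0.09, adjusted p = 0.0183). With this mean as a covariate, 0 of the 10 dendritic cell genes were called in AB1 (edgeR, 1 higher at an unadjusted p under 0.05, Fscn1, as were 13.7% of all genes), in a fit that called 4.25% of all genes in either direction and 0.888% lower. There Clec10a had -0.90 (SE 0.49, adjusted p = 0.291), Cd209a -0.28 (SE 0.43), Batf3 -0.06 (SE 0.48) and Siglech -0.58 (SE 0.49). In AE17 3 were called lower with the same covariate, Cd209a, Clec10a (-0.83, adjusted p = 0.0204) and Flt3 (-0.66, adjusted p = 0.0138), in a fit that called 14.4% of all genes in either direction and 6.17% lower. Skeletal muscle genes moved too in AB1, with 7 of 8 higher in IPL tumors and summed levels of 104 to 4201 CPM in IPL against 52.5 to 434 CPM in SC tumors, and their part in the results was not tested. Lung epithelial genes summed to at most 7.70 CPM in any AB1 tumor and 64.5 CPM in any AE17 tumor.

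**Figure D4:**
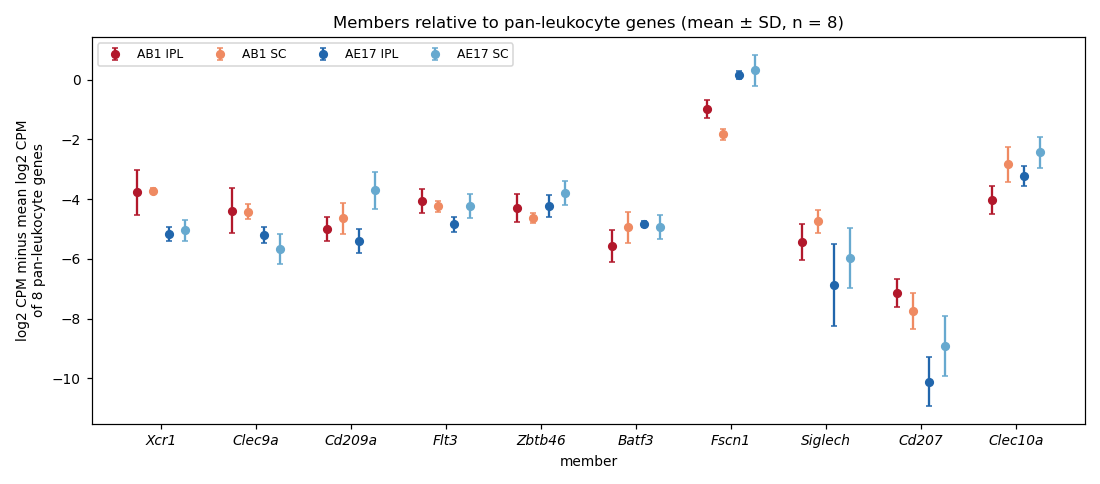
Log2 CPM of each gene minus the mean log2 CPM of 8 pan-leukocyte genes in the same tumor, as mean ± SD of 8 mice per group. The mean ± SD ranges of IPL and SC tumors lie apart for Cd209a in AE17 and Clec10a in AB1, with SC higher, and for Fscn1 in AB1, with IPL higher (-0.98 against -1.83), although single tumors of Clec10a in AB1 overlap. Xcr1 in AB1 lies at -3.78 in IPL and -3.71 in SC tumors, and Fscn1 in AE17 is the only gene at or above 0.

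Further genes listed for these cells were counted in the fits without a covariate, and a listed gene can come from other cells too. Beside the list counts, here and above, 10.7% of all genes were lower and 12.3% higher in AB1. In AE17 3.13% were lower and 2.6% higher. In AB1 2.64% of genes were called with lane and 4.25% with the pan-leukocyte level as a covariate. With lane in AE17 1 of 14668 genes was called, so at most 1 edgeR call of AE17 lists can remain. Of 11 further type 1 genes tested in AB1, 5 were lower in IPL tumors and 0 higher, led by Cd8a (-1.14, SE 0.31), which CD8 T cells also express, Ifi205 (-0.90, SE 0.22) and the integrin Itgae (-0.79, SE 0.19), with Naaa and Irf8 the others. At an unadjusted p under 0.05 in edgeR, 6 were lower and 0 higher, and DESeq2 called 5 lower and 0 higher. In AE17 0 of 11 were lower and 1 was higher, the adhesion molecule Cadm1 (0.80, SE 0.22, adjusted p = 0.0457), with 2 lower and 3 higher at an unadjusted p under 0.05 and 1 lower and 2 higher by DESeq2. Of all genes in AE17, 3696 of 14668 had an unadjusted p under 0.05, with 12% lower, and DESeq2 called 878 of 17967 higher. Ifi205, Naaa and Cadm1 had means of 380, 184 and 78.0 CPM in AE17 IPL tumors, against 6.15 CPM for Xcr1. Which cells gave these reads was not tested. Of 11 further type 2 genes, 8 were lower in AB1 IPL tumors and 0 higher, led by Mgl2 (-2.51, SE 0.36), Itgax, the CD11c gene (-2.15, SE 0.22), and Tnip3 (-1.83, SE 0.23), with 9 lower and 1 higher at an unadjusted p under 0.05 and 9 lower and 0 higher by DESeq2. The shares of all genes lower in AB1 were 10.7%, 16.3% and 8.74%, in that order. In AE17 2 of 11 were lower, where 3.13% of all genes were, Tnip3 (-1.15, SE 0.24, adjusted p = 0.0153) and Klf4 (-0.50, SE 0.14, adjusted p = 0.0492). Klf4 was close to the threshold, and the calls cannot both remain with lane as a covariate.

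Genes listed for mature, migrating dendritic cells were lower in AB1 IPL tumors for 9 of 11 tested, with a median of -0.84. In AE17 IPL tumors 3 of 11 were lower, with a median of -0.16. Of all genes 10.7% were lower in AB1 and 3.13% in AE17 in these fits without a covariate. With the pan-leukocyte level as a covariate 0.888% of all genes were lower in AB1. The chemokine genes Ccl17 and Ccl22, whose products attract T cells that carry Ccr4, were lower in both models without a covariate. Ccl17 was at -2.20 (SE 0.42) in AB1 and -2.27 (SE 0.36) in AE17, and Ccl22 at -1.39 (SE 0.21) and -1.65 (SE 0.29). With lane as a covariate the AE17 fit called 1 of 14668 genes, so they cannot both remain called there. Il12b, a subunit of interleukins 12 and 23, was at -0.73 (SE 0.21) in AB1 and -1.07 (SE 0.30) in AE17. Among the same genes, Cd274, the PD-L1 gene, was lower in AB1 (-1.34, SE 0.24), and had 0.35 (SE 0.24, adjusted p = 0.372) in AE17, with an interaction of -1.67 (SE 0.35, adjusted p = 0.00140).

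Of 10 further plasmacytoid genes tested in AB1, 6 were lower in IPL tumors, among them Ccr9 (-1.50, SE 0.26) and Klk1 (-1.36, SE 0.26), and 1 was higher, Cox6a2 (2.97, SE 0.58), which skeletal muscle also expresses. In these fits without a covariate, 10.7% of all genes were lower and 12.3% higher in AB1, and 3.13% and 2.6% in AE17. In AE17 1 of 10 was lower, Runx2 (-0.48, SE 0.10, adjusted p = 0.0193), and 0 were higher, against 3 higher at an unadjusted p under 0.05 and 1 higher by DESeq2. Langerhans cell genes were lower for 2 of 3 in AB1, Itgax and the cadherin Cdh1 (-1.85, SE 0.31), and 1 of 3 was higher in AE17, Mfge8 (0.41, SE 0.09, adjusted p = 0.0207). Mfge8 had a mean of 229 CPM in AE17 IPL tumors, against 0.112 CPM for Cd207, and which cells gave its reads was not tested. Of 9 ligands of dendritic cell growth and recruitment tested in AB1, 7 were lower in IPL tumors, led by the growth factor Csf2 (-2.30, SE 0.23) and the chemokine Ccl5 (-2.02, SE 0.30), while Ccl21a, a ligand of Ccr7 made by lymphatic vessels and lymph node stroma, was higher (3.89, SE 0.86). Xcl1, the ligand of Xcr1, was lower in AB1 (-1.24, SE 0.20, adjusted p = 0.000330) and did not pass in AE17 (-0.77, SE 0.28, adjusted p = 0.0999). In AE17 0 of 10 ligands were called by edgeR, with 1 lower and 2 higher at an unadjusted p under 0.05, and DESeq2 called 1 of 11 higher and 0 lower. For macrophage and monocyte genes 5 of 11 were lower in AB1 IPL tumors, led by the chemokine receptor Ccr2 (-1.17, SE 0.23), and 1 was higher, Cx3cr1 (1.15, SE 0.13), with 0 of 11 called in AE17 by edgeR and by DESeq2 (1 lower and 3 higher at an unadjusted p under 0.05 in edgeR). The B and T cell list split by lineage in AB1, where the 5 lower genes were the T cell genes Cd3d, Cd3e, Cd3g, Trac and Lck and the 3 higher genes were the B cell genes Ms4a1 (2.19, SE 0.77), Cd79b (1.21, SE 0.40) and Cd79a (0.84, SE 0.20). In AE17 1 of 7 was higher, Cd79a (4.07, SE 1.03, adjusted p = 0.0338).

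Between mice, most of the genes other than Cd207 and Fscn1, which were set aside after their values were seen, had positive correlations. All 28 pairs among Flt3, Zbtb46, Batf3, Xcr1, Clec9a, Cd209a, Clec10a and Siglech had a positive r over 32 mice after removal of the group means, from 0.19 for Xcr1 and Clec10a to 0.85 for Xcr1 and Clec9a, with a median of 0.54. Within single groups 108 of the 112 values were positive, from -0.19 to 0.99, with 2 of the 4 negative ones in AB1 IPL, 1 in AB1 SC and 1 in AE17 SC tumors. Flt3 and Siglech had an r of 0.77. Cd207, with few counts, had r between -0.30 and 0.08 with the others. For the remaining genes the most like outside the 10 were Wdr86 (r = 0.85), Kmo (0.84) and Itgae (0.82) for Flt3, Dzank1 (0.80), Tnfrsf25 (0.78) and Srpk3 (0.76) for Zbtb46, and Tns4 (0.88), Sema4a (0.85) and Pik3cd (0.85) for Batf3. Within groups the r of Tns4 with Batf3 ran from -0.11 to 0.95. The mice of a group share lanes in part and differ in leukocyte content, and these values are descriptions.

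**Figure D5:**
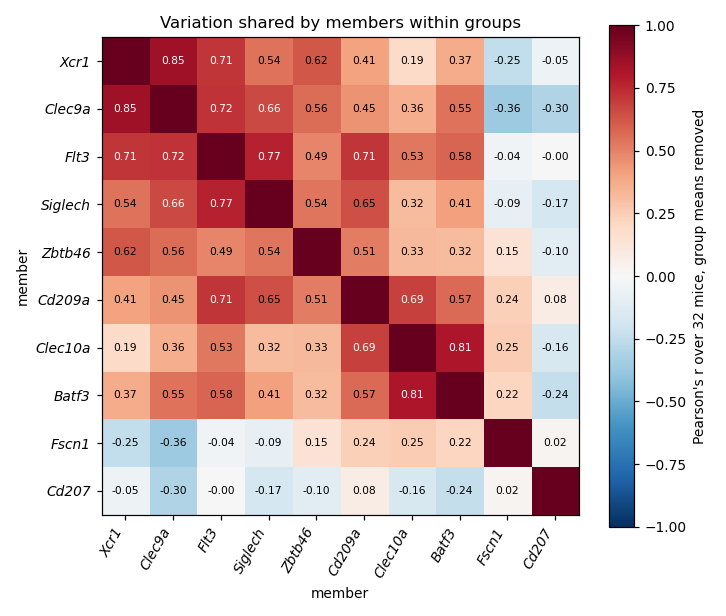
Pearson r of log2 CPM between each pair of the 10 genes over 32 mice after the mean of each group was removed, from blue (-1) through white (0) to red (1). The brightest red squares are Xcr1 with Clec9a (0.85) and Batf3 with Clec10a (0.81), and the rows of Fscn1 and Cd207 are pale.

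Between models the picture depended on the gene. Under the skin, 4 of the 10 genes were higher in AB1 (Xcr1, Clec9a, Siglech and Cd207, the last of which entered the fit only through AB1) and 3 were higher in AE17 (Fscn1, Zbtb46 and Cd209a). In IPL tumors 2 were higher in AB1 (Xcr1 and, with the same limit, Cd207) and 4 were higher in AE17 (Fscn1, Clec10a, Batf3 and Zbtb46). These comparisons use the same 32 tumors as the site comparisons, and each fell to 3 called genes with lane as a covariate, where 33.6% (SC) and 31.9% (IPL) of 15681 genes were called. With the pan-leukocyte level as a covariate 7 were called in SC and 2, Fscn1 and Cd207, in IPL tumors, where 68.4% and 32.8% of all genes were called. A share of 7 or 6 of 10 genes called stands beside a background of 63.7% and 59.1% of all genes.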

How the data were processed

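RNA of 32 whole tumors was sequenced as 50 bp single-end reads. The authors mapped the reads with HISAT2 2.0.4, after bcl2fastq 1.8.4, per the labels, and counted them per gene with SummerizeOverlaps, and the deposited values are raw counts without normalization. The methods name the genome as mm11, and the annotation release is not given in the sources used here. Of 39676 gene identifiers, 39495 were found in GENCODE M21 (GRCm38) with versions ignored, the 10 genes among them, and that annotation gave coordinates and exon lengths.

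Sample titles gave groups and replicate numbers. The 112 pairs of libraries within groups had a chi-square per degree of freedom between 5.92 and 148, so none was a copy of another. CPM used TMM factors of all 32 mice, and log2 CPM a prior count of 2. Comparisons used edgeR 4.0.16 in R 4.3.3 (filterByExpr, TMM, robust two-sided quasi-likelihood F test, Benjamini-Hochberg over all genes tested, threshold 0.05), with SE as the log2 fold change divided by the root of F. Alternatives were DESeq2 1.42.0, the authors' tool, its size factors, other filters, all 32 mice in 1 fit, the replicate number as a block, the pan-leukocyte level or lane as a covariate, tumors of 1 lane, each mouse left out, and an adjusted p under 0.01. Fits were tested on simulated data. The genes and gene lists were chosen with earlier results of these data known. Named by rule were all 10 genes, the 3 genes most like each by r, and up to 3 called genes per list with the largest change. Xcl1, Naaa, Irf8 and the macrophage and lymphocyte genes named in the text were added after their values were seen. The floor of 3 counts covers counting error only, since reads carry no molecular identifiers. Labels name mice separately, and litters or cages are not given.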

Additional observations from a re-analysis of the deposited data

Results flagged for a closer look

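In 6 of the 40 sets of 8 mice that were checked (10 genes in 4 groups), a single tumor lay far from the other 7 by Dixon's ratio. The ratio was taken on CPM without logs, and the sets share tumors. The usual chance rate of 1 in 20 therefore does not apply, and no excess of such tumors is drawn from the count. AE17 IPL replicate 5 was the highest of its group for Clec9a (9.01 CPM, next 6.63), Zbtb46 (20.2 CPM, next 13.2) and Siglech (11.4 CPM, next 4.06). The remaining tumors were AB1 SC replicate 6 with the highest Cd209a (18.7 CPM, next 11.6), AB1 IPL replicate 3 with the highest Siglech (7.42 CPM, next 3.88) and AE17 SC replicate 8 with the lowest Batf3 (2.38 CPM, next 6.91).

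For 3 of the 10 genes, the site difference differed between the models by the interaction test of edgeR, which called 20.5% of 15681 genes. Batf3 had -1.36 (AB1 minus AE17, adjusted p = 0.00930), Clec10a had -1.08 (adjusted p = 0.0400) and Cd207 had 1.68 (adjusted p = 0.0415). The Cd207 value rests on AE17 tumors with 0 to 12 counts, where the gene failed the filter on low counts, so that it entered this fit only through AB1 and no difference is drawn from it. It passed in 16 of 32 fits that left out a mouse, and not without a filter (adjusted p = 0.0699), with a replicate block (0.0764), or with the pan-leukocyte level (0.405) or lane (0.408) as a covariate.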

How the results depend on the processing

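The number of dendritic cell genes called moved by over 1.5 times in 6 of 10 alternatives and in 11 of 16 fits that left out a mouse for AE17 by site, and in 3 of 10 and 1 of 16 for AB1 by site, 4 of 8 and 9 of 32 for the interaction, 1 of 9 and 0 of 16 between SC and 2 of 9 and 0 of 16 between IPL tumors. With the share of all genes called in the same fit in brackets, it was in AB1 by site (4, 23%) 0 with the pan-leukocyte level as a covariate (4.25%), 2 with lane as a covariate (2.64%) and 1 within 1 lane (1.06%). In AE17 by site (2, 5.73%) it was 1 without a filter (1.93%), 1 with the replicate number as a block (4.51%), 0 with lane as a covariate (0.00682%), 0 within 1 lane (0.0911%), 4 with all 32 mice in 1 fit (8.44%) and 1 at an adjusted p under 0.01 (0.511%). The interaction count (3, 20.5%) was 1 without a filter (9.01%), 1 with the pan-leukocyte covariate (6.36%), 0 with lane (0.746%, edgeR, 1 at an unadjusted p under 0.05) and 1 at an adjusted p under 0.01 (9.65%). Between models it was 3 with lane in SC tumors (7, 63.7%, against 33.6% with lane) and, in IPL tumors (6, 59.1%), 3 with lane (31.9%) and 2 with the pan-leukocyte covariate (32.8%). Leaving out each mouse in turn gave 4 to 8 in AB1 (19.4% to 24.7%), 1 to 4 in AE17 (2.14% to 14%), 1 to 3 for the interaction (17.2% to 23.2%), 6 to 7 in SC (61.2% to 64.9%) and 6 in IPL tumors (56% to 61.3%). The cause of these changes was not tested.

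The labels do not say that a replicate number marks mice with anything in common. Same-numbered IPL and SC tumors correlated over 0.1 in 0 of 8 pairs in AB1 (mean -0.12) and in 5 of 8 pairs in AE17 (mean 0.07, -0.23 to 0.27, against -0.0073 for other pairs), where 4 of 16 tumors correlated best with their own number, so the numbers were not taken as pairs. With a replicate block, 4 were called in AB1 (15.5% of all genes), 1 in AE17 (4.51%, Clec10a was lost), 2 for the interaction (18%) and 6 in each comparison of models (60.1% in SC, 55.5% in IPL).

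Signs changed only for log2 values that were not called. With the pan-leukocyte covariate these were Clec9a in AB1 (0.18), the interactions of Xcr1 (0.084), Clec9a (0.093) and Siglech (1.14), Batf3 between SC models (-0.023) and Cd209a between IPL models (0.79). With lane they were Xcr1 in AE17 (0.027, and 0.025 within 1 lane) and Siglech between IPL models (-0.47), and with the block Flt3 between SC models (0.0039). Fits that each left out 1 mouse gave ranges across 0 for Cd207 in AB1 (-0.23 to 0.065), Batf3 in AE17 (-0.090 to 0.11), the interactions of Zbtb46 (-0.024 to 0.22) and Siglech (-0.96 to 0.036), and Flt3 (-0.17 to 0.030) and Batf3 (-0.12 to 0.15) between SC models. Counts of 0 to 12 limit the precision of Cd207 in AE17, and lane, which has no overlap between models within a site, limits every comparison of models.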
